A study of Homo sapiens with 7 samples.

Results

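The regions described here are narrow stretches of H3K4me3 that lie beside a wide one. They are the autosomal regions under 2000 bp whose gap to the nearest region of 2000 bp or more on the same chromosome was at most 3 kb. The rule found 1119 such flanking regions, which is 3.63% of the 30840 regions listed and 5.64% of the 19825 narrow autosomal regions. They lie beside 1050 different wide regions, 10.2% of the 10251 wide autosomal ones. The rule uses position and width only, and no RPM value entered the choice. Width and level go together, so a low level of the flanking regions is partly set by the rule.

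The mark was measured by ChIP-seq, the sequencing of DNA that an antibody to H3K4me3 pulls down with chromatin. The cells were HCT116, which come from a human colon cancer, of the genotype KDM5A-/-. They received an empty vector (EV), wild type KDM5A or mutant KDM5A and were fixed 24 h after transfection. All 3 groups share the knockout, so the EV cells stand for cells without KDM5A, and both other groups carry it from a plasmid. The sources used here do not give the residues that the mutant changes, the protein made from each plasmid, or whether the line is 1 clone.

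Each group has 1 H3K4me3 library, so no difference below has a replicate check, and intervals cover counting error only. Depth was 10713021 reads for EV, 10852411 for wild type and 9906508 for mutant KDM5A. The listed regions held 67.0% of the EV reads, 60.7% of the wild type reads and 56.9% of the mutant reads. This share moves in the same order as the levels of the wide regions, and its part in the differences between libraries was not tested. Values are in RPM, reads scaled to a total of 1000000 for each library.

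Trimethylation of lysine 4 on histone H3 marks the start sites of active genes, where it usually forms a peak on the nucleosomes around the start site and thins out towards the edges. KDM5A is an enzyme that removes methyl groups from this lysine, and SMYD2, named in the title of the series, is a lysine methyltransferase. Narrow patches beside a wide domain can be outlying nucleosomes of the same promoter, a nearby second start site or an enhancer. Which of these a given region is could not be read from the files, because the regions are in hg19 and the gene table at hand is of another build. Regions are therefore named by their hg19 coordinates alone.

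The flanking regions were short and weak beside wide regions that were strong. Their median width was 775 bp, with a middle range between quartiles of 417.5 to 1268 bp, and the median gap to the wide neighbour was 1637 bp. The wide neighbours had a median width of 2881 bp. The median level over the 3 libraries was 1.89 RPM for the flanking regions and 44.4 RPM for their neighbours. A flanking region held a median of 5.34% of the RPM of its neighbour, and 725 of the 1119 (64.8%) held under 10%. Per length the contrast was smaller but remained, at a median of 2.68 RPM per kb against 15.0 RPM per kb. The median density of a flanking region was 22.1% of that of its neighbour.

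Narrow regions farther from any wide region looked much the same. The 18706 narrow autosomal regions over 3 kb away had a median width of 761.5 bp, a median level of 1.94 RPM and a median density of 2.87 RPM per kb. By library, the median level of the flanking regions was 1.87 RPM for EV, 1.94 RPM for wild type and 1.82 RPM for mutant KDM5A. The medians of the wide neighbours were 48.7, 44.5 and 40.7 RPM in the same order. The medians of the wide neighbours stepped down from EV to wild type to mutant, and those of the flanking regions did not, although the sums of both did, as given further on. At 0 reads were 6 flanking regions for EV, 12 for wild type and 7 for mutant KDM5A, where 3 reads, the limit a count of 0 allows, are 0.280, 0.276 and 0.303 RPM.

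**Figure D1:**
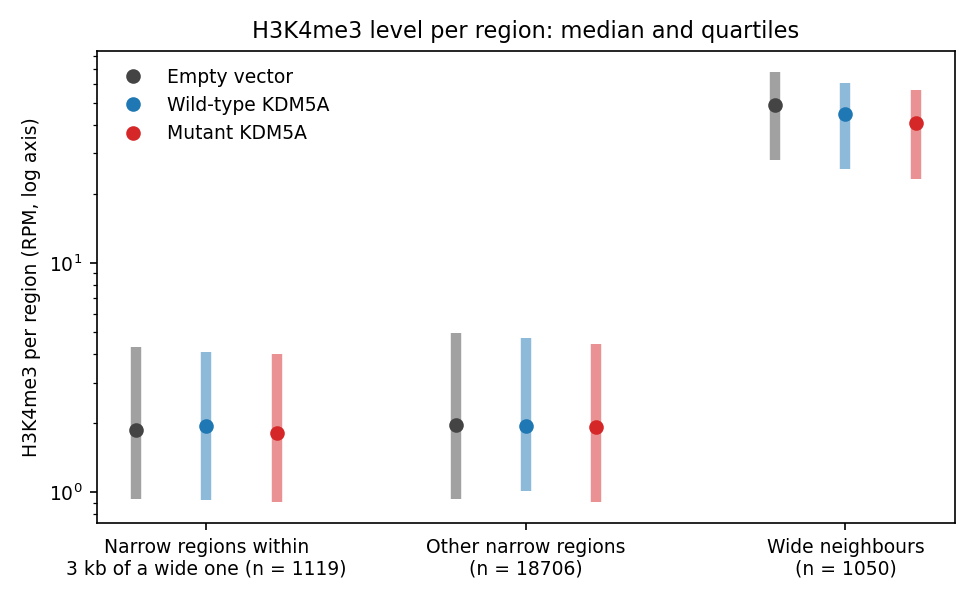
H3K4me3 per region in RPM on a log axis, for the flanking narrow regions, the other narrow regions and the wide neighbours, with points for the medians of the 3 libraries and bars between the quartiles. The flanking regions have medians of 1.87, 1.94 and 1.82 RPM for EV, wild type and mutant KDM5A, close to the other narrow regions and far below the wide neighbours.

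The 2 sides of a wide region were equally used, with 562 flanking regions before it and 557 after it in coordinate order. Most flanked wide regions had a single narrow companion (985), while 61 had 2 and 4 had 3. Chromosome 1 held 117 flanking regions, chromosome 19 held 118 and chromosome 17 held 99. As a share of the narrow regions of each chromosome this is 5.87% for chromosome 1, 11.8% for chromosome 19 and 9.42% for chromosome 17. At the other end were chromosome 18, where 13 flanking regions made up 3.19% of the narrow ones, and chromosome 21 with 7 in all.

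The levels covered a wide range, from 0.202 to 48.2 RPM. Under 1 RPM were 321 flanking regions (28.7%), and 225 (20.1%) reached 5 RPM or more. Level followed width, with a Pearson r of 0.87 and a Spearman rho of 0.89 between width and log2 RPM over the 1119 regions. It hardly followed the strength of the wide neighbour: the r between the log2 RPM of the pair was 0.068 in the EV library, 0.032 in the wild type library and 0.023 in the mutant library. Both correlations are across regions of the same libraries and are given as descriptions.

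A few flanking regions were as strong as a wide one. The strongest lies on chromosome 10, 79787829 to 79789797, with 54.4 RPM for EV, 47.3 for wild type and 42.9 for mutant KDM5A. Its wide neighbour, 79792497 to 79795831, had 49.8, 48.7 and 44.5 RPM. The next is on chromosome 14, 39638440 to 39640391, at 50.4, 46.1 and 43.2 RPM in the same order, beside a neighbour at 54.7, 52.4 and 49.2 RPM. Both pairs stepped down from EV to wild type to mutant. On chromosome 19, the region 6463773 to 6465671 had 44.9, 41.9 and 41.8 RPM, and 4399050 to 4400615 had 45.7, 40.4 and 38.5 RPM. In all 3 libraries, 15 flanking regions were above their neighbour in RPM. By the mean of the libraries, 116 (10.4%) were above it in RPM per kb.

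In some pairs the narrow region carried most of the mark. On chromosome 10, the region 22904548 to 22905564 had 10.2 RPM for EV, 9.86 for wild type and 12.1 for mutant KDM5A, while its neighbour 22906556 to 22909719 had only 4.39, 3.59 and 3.63 RPM. Its density was 861% of that of the neighbour. On chromosome 1, the region 84763928 to 84765777 had 40.9, 33.6 and 32.0 RPM, at 533% of the neighbour's density, and 200859681 to 200861342 had 23.2, 22.1 and 18.98 RPM, at 464%. On chromosome 9, the region 135280671 to 135282576 had 48.8, 40.5 and 37.0 RPM beside a wide region at 17.5, 15.4 and 14.5 RPM. In these pairs the wide region was the weaker one per length, and the label of a flank to a stronger domain does not describe them.

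The flanking regions nearest to a wide region were the smallest and weakest. The 35 within 500 bp had a median width of 392 bp and a median level of 0.742 RPM. The 195 at 500 to 1000 bp had a median of 1.42 RPM, the 522 at 1 to 2 kb 2.00 RPM, and the 367 at 2 to 3 kb 2.30 RPM. The share of all reads of the pairs that lay in the flanking regions followed the gap in the EV library, with 2.42%, 5.96%, 8.44% and 10.4% in these 4 classes. Median width also went up across the classes, to 669, 789.5 and 854 bp, so gap and width cannot be told apart here. Over single regions the relation of gap to log2 RPM was weak, at r = 0.18 and rho = 0.17 over 1119 regions.

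The nearest member shows how the list splits a patch of mark. On chromosome 6, the region 138406538 to 138407738 ends 6 bp before its wide neighbour and had 1.68 RPM for EV, 0.829 for wild type and 0.808 for mutant KDM5A, from 18, 9 and 8 reads. Its neighbour, 138407745 to 138410045, had 3.17, 5.07 and 3.94 RPM. The interval of each ratio to EV included 1 for the flanking region.

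The question the design puts to these regions is whether H3K4me3 beside a wide region differed with the 2 forms of KDM5A as it did in the wide region itself. Summed over all 1119, the flanking regions held 5110.4 RPM for EV, 4783 RPM for wild type and 4528 RPM for mutant KDM5A. Wild type KDM5A against EV was a change of -6.41% (95% interval -7.53% to -5.28%), and the wide neighbours changed by -9.56% (-9.90% to -9.22%). Mutant KDM5A against EV was a change of -11.4% (-12.5% to -10.3%) in the flanking regions and -16.0% (-16.3% to -15.6%) in the neighbours. Mutant against wild type was -5.32% (-6.51% to -4.11%) and -7.08% (-7.46% to -6.71%). In each comparison the summed decrease of the flanking regions was smaller than that of the wide regions beside them, with intervals that did not overlap. The other narrow regions, over 3 kb from a wide one, changed in sum by -6.87%, -12.3% and -5.81% in these comparisons. A smaller summed decrease than that of the wide neighbours was thus not particular to the flanking regions. The 2 comparisons with EV share the EV library. Of the summed EV RPM of the flanking regions, 1814 lay in the 56 regions of 20 RPM or more and 1720 in the 169 of 5 to 20 RPM. The sums of the flanking regions, and their shares of the pairs given next, thus rest mostly on these stronger regions.

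The same contrast appears as the share of the pair. The flanking regions held 8.87% (Wilson interval 8.80% to 8.94%) of the reads of the pairs for EV, 9.15% (9.07% to 9.22%) for wild type and 9.31% (9.22% to 9.39%) for mutant KDM5A. The share was higher than with EV by 0.281 percentage points for wild type and by 0.438 points for mutant KDM5A. Scaling of a library cancels in this share, but background reads do not, and they weigh more in a weak region than in a strong one. The control libraries (input, IgG) were not used here, and the part of background in this shift was not tested.

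**Figure D2:**
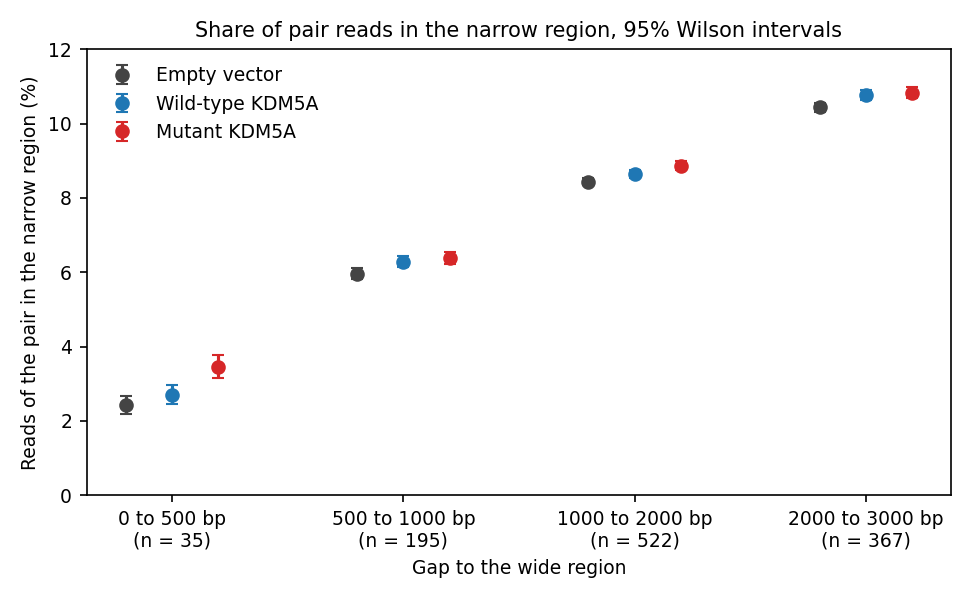
Percent of the reads of the pairs that lay in the flanking region (vertical axis) for the 3 libraries in 4 classes of gap (horizontal axis), with 95% Wilson intervals as bars. The share goes up with the gap, and within each class EV is the lowest of the 3, from 2.42% against 2.69% and 3.45% within 500 bp to 10.4% against 10.8% and 10.8% at 2 to 3 kb.

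The median change of the flanking regions was small, while single regions scattered in both directions. The median log2 ratio of RPM plus 0.7 was -0.044 for wild type against EV, with quartiles of -0.33 and 0.27, and -0.078 for mutant against EV, with quartiles of -0.34 and 0.27. The medians of the wide neighbours were -0.13 and -0.23, those of the other narrow regions -0.033 and -0.092, and those of all regions -0.11 and -0.18. The sign for the flanking regions depends on the scaling: with the median ratio of strong regions set to 1, their medians were 0.070 and 0.10. Mutant against wild type gave -0.021 for the flanking regions and -0.10 for their neighbours. Within a pair, the log2 ratio of the flanking region was above that of its neighbour in 56% of pairs for wild type against EV (median difference 0.087), in 64% for mutant against EV (0.13) and in 56% for mutant against wild type (0.072). Other narrow regions against their own nearest wide region gave medians of 0.11, 0.15 and 0.041, so a smaller change than the wide region was not particular to a gap within 3 kb. After removal of the trend of log2 ratio on level, the median difference within pairs had the opposite sign, with -0.033 for wild type against EV and -0.025 for mutant against EV.

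The 3 libraries were in the order EV, then wild type, then mutant in 62.8% of the wide neighbours and in 21.5% of the flanking regions. It was found in 25.8% of the other narrow regions and in 40.1% of all regions, so narrow regions elsewhere were near the flanking ones. Pairs did not move together closely. The r between the log2 ratio of the flanking region and that of its neighbour was 0.14 for wild type against EV and 0.12 for mutant against EV, over 1119 pairs that share the libraries.

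**Figure D3:**
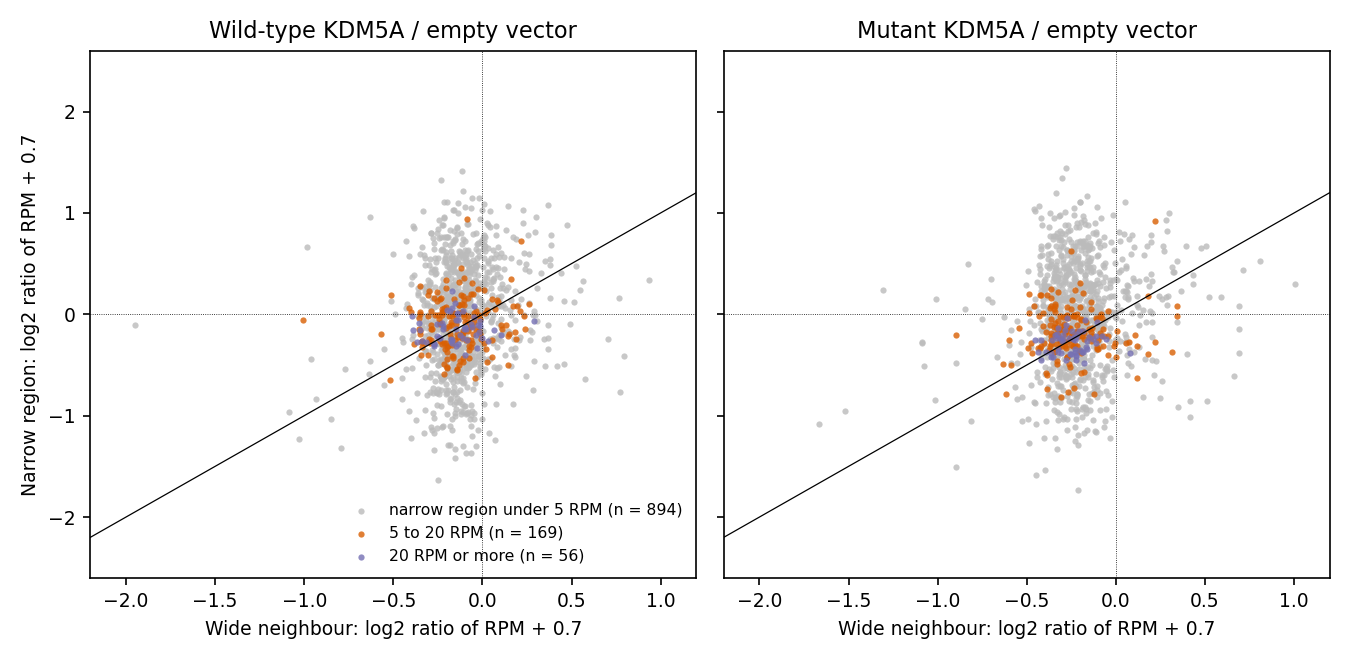
Log2 ratio of RPM plus 0.7 of each flanking region (vertical axis) against that of its wide neighbour (horizontal axis), 1 point per pair, coloured by the level of the flanking region, with the line of equal ratios, for the comparisons with EV. The flanking regions spread far more than their neighbours, and r is 0.14 for wild type and 0.12 for mutant KDM5A.

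The counts of regions past 1.5-fold, or with a 95% interval that leaves out 1, have to be read beside the same counts over all 30840 regions. For wild type against EV, 131 flanking regions (11.7%) were lower by 1.5-fold, against 6.53% of all regions, and 121 (10.8%) were higher, against 6.23%. For mutant against EV, 150 (13.4%) were lower, against 8.15%, and 121 (10.8%) were higher, against 6.61%. For mutant against wild type, 89 (7.95%) were lower, against 5.45%, and 87 (7.77%) were higher, against 5.19%. Both directions were above the background by a like amount, and the other narrow regions showed a like share, with 9.10% lower and 9.22% higher for wild type against EV. Of the flanking regions past 1.5-fold, 52.0% were lower for wild type against EV, 55.4% for mutant against EV and 50.6% for mutant against wild type. With the median ratio of strong regions set to 1 these shares were 36.5%, 33.4% and 36.1%. Most of these regions were weak: among the 225 flanking regions of 5 RPM or more, 3 were lower and 2 higher for wild type against EV, and 8 lower and 2 higher for mutant against EV.

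By the interval of the ratio, which takes the reads into account, decreases were more frequent than increases. Their share was below that of all regions, many of which have far more reads, and near that of the other narrow regions. For wild type against EV, the interval lay below 1 for 123 flanking regions (11.0%), against 20.1% of all regions, and above 1 for 68 (6.08%), against 3.56%. For mutant against EV, it lay below 1 for 151 (13.5%), against 31.7%, and above 1 for 64 (5.72%), against 3.49%. For mutant against wild type, it lay below 1 for 63 (5.63%), against 10.8%, and above 1 for 58 (5.18%), against 2.89%. In the other narrow regions the interval lay below 1 for 9.29%, 13.8% and 6.08% in these 3 comparisons, and above 1 for 4.95%, 4.93% and 3.92%. The flanking shares above 1 were thus nearer to those of the other narrow regions than to those of all regions. Among the wide neighbours, with many more reads each, the interval lay below 1 for 37.9% with wild type and for 61.1% with mutant KDM5A against EV. Of the 225 stronger flanking regions, it lay below 1 for 41 with wild type and for 67 with mutant KDM5A, and above 1 for 3 and 2.

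The change depended on the level of the flanking region. The 56 regions of 20 RPM or more were lower by about as much as wide regions, with a summed change of -10.1% (-11.9% to -8.22%) for wild type and -17.8% (-19.6% to -16.1%) for mutant KDM5A against EV. Their neighbours changed by -9.89% and -16.7%. Their order was EV, wild type, mutant in 67.9% of cases, close to the wide neighbours, and they held 37.4%, 37.3% and 37.1% of the reads of their pairs. Other narrow regions of 20 RPM or more changed by -9.22% (-9.57% to -8.87%) and -15.4% (-15.8% to -15.1%). That order was found in 64.8% of them and in 71.4% of all regions at this level, so it was not particular to the flanking regions. The 169 regions of 5 to 20 RPM changed by -7.45% (-9.36% to -5.50%) and -13.6% (-15.4% to -11.7%). These values were near those of the other narrow regions at the same level, which changed by -7.87% and -14.3%.

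Flanking regions of 2 to 5 RPM did not differ from EV in sum beyond counting error. The 311 of them changed by 0.67% (-2.03% to 3.44%) for wild type and by 0.54% (-2.21% to 3.37%) for mutant KDM5A against EV. Other narrow regions at this level changed by -2.73% (-3.40% to -2.06%) and -6.43% (-7.09% to -5.76%). The intervals of the flanking and the other narrow regions did not overlap, for wild type KDM5A only by a narrow margin. The share of the pair held by these flanking regions was 6.24% (6.13% to 6.36%) for EV, 6.85% (6.73% to 6.98%) for wild type and 7.33% (7.19% to 7.47%) for mutant KDM5A, the widest step of the 5 classes in points. The 262 flanking regions of 1 to 2 RPM changed by 1.59% (-2.73% to 6.11%) and -3.76% (-8.01% to 0.68%) against EV. Other narrow regions at that level changed by 0.40% (-0.63% to 1.44%) and -1.71% (-2.75% to -0.67%), so the intervals overlapped.

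**Figure D4:**
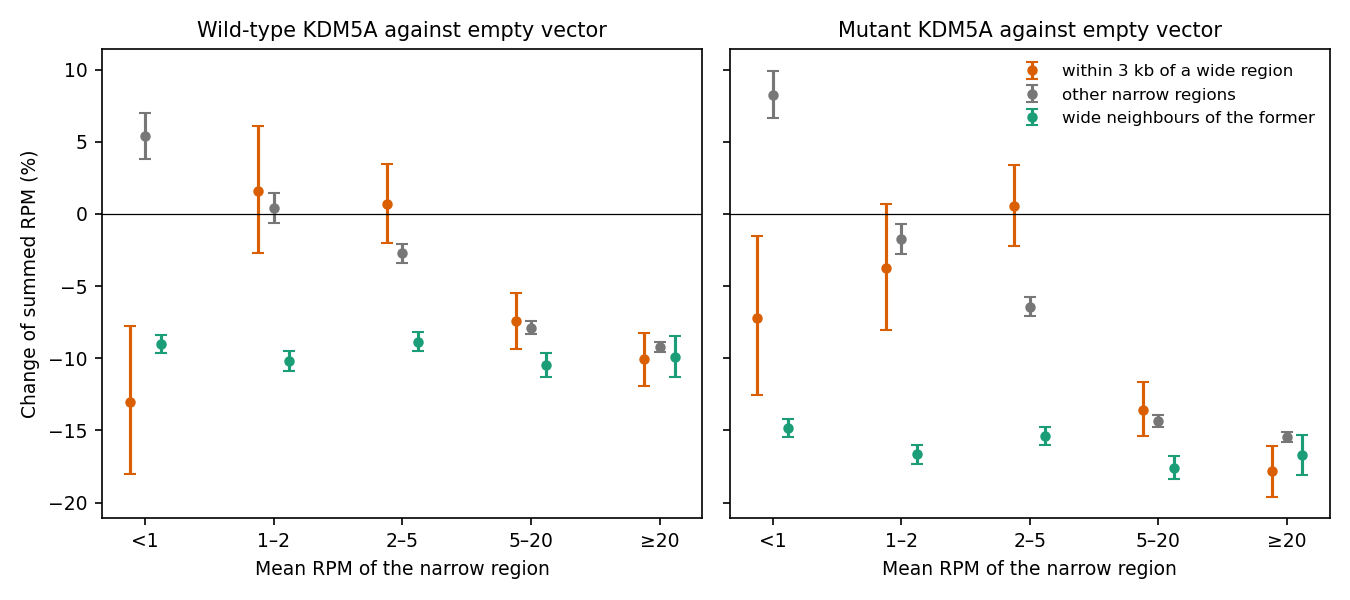
Summed change of RPM in percent, with 95% counting intervals, by class of mean RPM, for flanking regions, other narrow regions and the wide neighbours of the flanking regions, in the comparisons with EV. Flanking regions under 1 RPM lie below 0 for wild type against EV (-13.0%), where other narrow regions of that level lie above 0 (5.38%).

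The weakest class went the other way from its counterpart farther out. Summed over the 321 flanking regions under 1 RPM, wild type KDM5A against EV was a change of -13.0% (-18.0% to -7.77%) and mutant against EV of -7.19% (-12.5% to -1.54%). The 4898 other narrow regions under 1 RPM changed by 5.38% (3.81% to 6.98%) and 8.27% (6.63% to 9.94%). Split by gap, a division made after these values were seen, the change for wild type against EV was -16.8% (-34.4% to 5.36%) within 500 bp, -25.3% (-34.8% to -14.5%) at 500 to 1000 bp, -8.46% (-16.0% to -0.23%) at 1 to 2 kb and -10.3% (-19.9% to 0.47%) at 2 to 3 kb. The 531 narrow regions under 1 RPM at 3 to 10 kb changed by 8.0% (3.20% to 13.0%), the 2346 at 10 to 100 kb by 8.42% (6.11% to 10.8%), and the 2021 beyond 100 kb by 1.14% (-1.23% to 3.57%). For wild type the 4 classes within 3 kb were thus below 0, with 2 intervals that included 0. Mutant against EV gave 13.6% (-9.14% to 42.0%), -10.3% (-21.4% to 2.34%), -6.98% (-14.8% to 1.55%) and -10.2% (-20.1% to 0.79%) in these 4 classes, all with intervals that included 0.

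Within this weakest class the mutant library differed from the wild type library close to the wide region. The 68 regions at 500 to 1000 bp held 47.1 RPM for EV, 35.2 RPM for wild type and 42.3 RPM for mutant KDM5A. The 24 within 500 bp held 14.8, 12.3 and 16.9 RPM. Wild type was thus the lowest library in both classes. Over the 92 regions together, mutant against wild type was a change of 24.4% (10.3% to 40.3%). This pool joins classes of the division made after the values were seen, so its interval tests no difference. The other regions under 1 RPM gave 1.61% (-7.09% to 11.1%) at 1 to 2 kb and 0.047% (-11.2% to 12.7%) at 2 to 3 kb.

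Of the 35 flanking regions within 500 bp of a wide region, 24 are in the weakest class and so already among these 92. Over the 92, wild type against EV was -23.3% (-31.8% to -13.8%) and mutant against EV -4.56% (-14.7% to 6.81%), so the wild type library was the low one. Over the 35, of any level, the mutant library was the high one. Their summed change was 1.60% (-11.5% to 16.7%) for wild type against EV, 22.9% (7.40% to 40.7%) for mutant against EV and 21.0% (5.81% to 38.3%) for mutant against wild type. Their wide neighbours changed by -8.81%, -14.5% and -6.25%. The share of the pair was 2.42% (2.20% to 2.67%) for EV, 2.69% (2.45% to 2.96%) for wild type and 3.45% (3.15% to 3.77%) for mutant KDM5A. The class rests on 410 EV reads in all. The strongest of the 35, on chromosome 19, 4725706 to 4727355, had 5.88 RPM for EV, 7.65 for wild type and 6.66 for mutant KDM5A. Without it, a check added after the values were seen, the changes were -3.56% (-17.2% to 12.3%), 24.7% (7.69% to 44.4%) and 29.3% (11.6% to 49.8%).

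Beyond 500 bp the summed change was below 0 in each class. Wild type against EV gave -4.45% at 500 to 1000 bp, -6.92% at 1 to 2 kb and -6.55% at 2 to 3 kb. Mutant against EV gave -7.92% (-11.2% to -4.52%), -11.8% and -12.5%. The flanking regions at 1 to 3 kb were thus near the value of all flanking regions, and those at 500 to 1000 bp lay between it and 0.

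**Figure D5:**
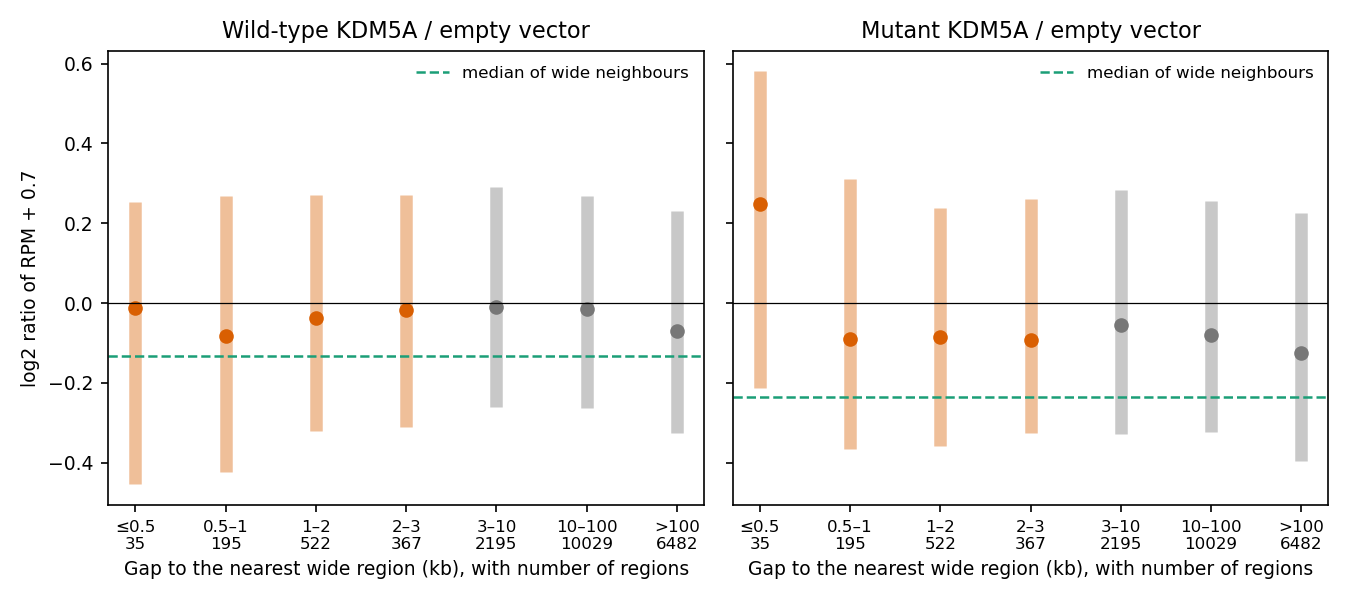
Median log2 ratio of RPM plus 0.7 (points) with quartiles (bars) by gap to the nearest wide region, for the flanking regions in 4 classes and for other narrow regions in 3, with a dashed line at the median of the wide neighbours. The 35 flanking regions within 500 bp have a median of 0.25 for mutant against EV, where the other 3 classes within 3 kb have -0.091, -0.085 and -0.092.

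Among the 225 stronger flanking regions (5 RPM or more), 3 were lower by 1.5-fold for wild type against EV, against 6.53% of all regions. The regions named next were picked for a low ratio of wild type to EV or a low difference from the neighbour. Their low wild type values therefore follow from the pick. On chromosome 20, the region 3761572 to 3762304 had 9.89 RPM for EV, 6.08 for wild type and 5.45 for mutant KDM5A. Its neighbour, 3765224 to 3768017, had 19.4, 13.4 and 12.4 RPM. Wild type against EV gave a ratio of 0.615 (0.445 to 0.844) and mutant against EV one of 0.551 (0.389 to 0.772), so both regions of this pair were lower in both libraries. In other pairs only the narrow region was low with wild type KDM5A. On chromosome 9, the region 98075159 to 98077095 had 8.77, 5.44 and 6.56 RPM beside a neighbour at 37.6, 36.6 and 32.8 RPM. On chromosome 2, the region 45168359 to 45169338 had 8.49, 5.81 and 8.28 RPM beside a neighbour, 45164393 to 45167171, at 44.3, 49.1 and 41.0 RPM. Wild type against EV gave a ratio of 0.620 (0.440 to 0.867) on chromosome 9 and of 0.683 (0.488 to 0.953) on chromosome 2. Both regions were picked for a low difference from the neighbour, so the contrast within these pairs follows from the pick.

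Several of the named regions were low in the wild type library alone. On chromosome 19, the region 6744101 to 6745784 had 8.12 RPM for EV, 5.16 for wild type and 7.47 for mutant KDM5A, while 16293129 to 16294046 had 10.4, 6.91 and 9.49 RPM. On chromosome 10, the region 105455707 to 105457118 had 8.68, 5.71 and 7.77 RPM. On chromosome 6, the region 26327257 to 26329198 had 7.84, 5.25 and 7.67 RPM, with a ratio of 1.46 (1.02 to 2.10) for mutant against wild type. The mutant value was nearer to that of EV than to that of wild type in each of these regions, while the wide region beside the first had 144, 123 and 108 RPM. They were picked for a low ratio of wild type to EV or a high one of mutant to wild type. A low wild type value therefore follows from the pick. For mutant against wild type, the region on chromosome 10 had an interval of 0.961 to 1.93. Among the 225, that interval lay above 1 for 4, against 2.89% of all regions, and below 1 for 26, against 10.8%.

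The highest ratios to EV among the 225 belonged to a pair of flanking regions that were under 5 RPM with EV. They reached a mean of 5 RPM only through the other 2 libraries and were then picked for their ratios, so their values are a description and support no increase. On chromosome 6, the region 27781611 to 27782908 had 3.55 RPM for EV, 7.46 for wild type and 5.85 for mutant KDM5A. Wild type against EV gave a ratio of 2.10 (1.41 to 3.18) and mutant against EV one of 1.65 (1.08 to 2.55). Its neighbour, 27774567 to 27779416, had 35.1, 33.0 and 29.4 RPM, so the share of this pair in the flanking region was 9.18%, 18.5% and 16.6%. On chromosome 10, the region 104393293 to 104395030 had 3.08, 5.53 and 6.46 RPM, with ratios to EV of 1.79 (1.15 to 2.83) and 2.10 (1.36 to 3.30). Here the neighbour, 104387340 to 104390576, was higher too, at 9.43, 11.1 and 11.1 RPM. The other regions highest for wild type against EV had smaller ratios, such as 1.40 (1.04 to 1.90) on chromosome 11, 2953794 to 2955320, with 7.28, 10.2 and 8.58 RPM.

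Among the same 225 regions, the lowest ratio for mutant against EV was on chromosome 6, 27572652 to 27574347, with 9.05 RPM for EV, 7.56 for wild type and 4.85 for mutant KDM5A. Its ratio was 0.535 (0.371 to 0.764). Its neighbour, 27568073 to 27570749, had 15.7, 12.6 and 12.5 RPM. On chromosome 11, the region 68611111 to 68612043 had 7.28, 5.99 and 3.94 RPM beside a neighbour at 55.0, 57.0 and 50.4 RPM. On chromosome 19, the region 17413501 to 17414745 had 8.03, 5.34 and 4.44 RPM, and on chromosome 5, the region 72746699 to 72747896 had 11.4, 8.94 and 6.56 RPM. All 4 stepped down from EV to wild type to mutant, but a low mutant value follows from the pick. All except the one on chromosome 5 were under 5 RPM with mutant KDM5A. Those reached a mean of 5 RPM only through the other libraries. Of the regions highest for mutant against EV, only the pair of chromosomes 6 and 10 above had an interval over 1. The third, on chromosome 16, 89571679 to 89572536, had 4.85, 6.17 and 6.16 RPM and a ratio of 1.27 (0.862 to 1.87).

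Some flanking regions, picked for a low ratio of mutant to wild type, were lower with mutant than with wild type KDM5A. On chromosome 1, the region 156658933 to 156659976 had 7.56 RPM for EV, 7.92 for wild type and 4.64 for mutant KDM5A, a ratio of mutant to wild type of 0.586 (0.400 to 0.848). Its neighbour, 156661513 to 156664278, went the other way, with 7.09, 5.16 and 7.77 RPM, and the share of the pair was 51.6%, 60.6% and 37.4%. On chromosome 5, the region 180596332 to 180598140 had 5.97, 5.81 and 3.33 RPM, and on chromosome 21, the region 37502032 to 37503367 had 8.49, 10.8 and 6.76 RPM. On chromosome 13, the region 114893919 to 114895276 had 7.09, 9.31 and 5.65 RPM. In the last 2 of these the wild type value was the highest of the 3 libraries. Their intervals for mutant against EV included 1, at 0.572 to 1.10 on chromosome 21 and 0.554 to 1.14 on chromosome 13. The regions on chromosomes 1 and 5 were under 5 RPM with mutant KDM5A and reached a mean of 5 RPM only through the other libraries.

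In some named pairs the wide region was lower with both forms of KDM5A, while both intervals of the narrow region's ratio to EV included 1. On chromosome 19, the region 46919482 to 46920749 had 8.96 RPM for EV, 8.57 for wild type and 7.67 for mutant KDM5A, with intervals of both ratios to EV that included 1. Its wide neighbour, 46915004 to 46917275, had 6.44, 2.86 and 3.13 RPM. On chromosome 1, the region 46648288 to 46650054 had 5.97, 6.91 and 6.36 RPM beside a wide region at 11.8, 8.02 and 8.38 RPM. On chromosome 7, the region 128467106 to 128468693 had 5.23, 6.08 and 6.36 RPM beside one at 38.5, 31.0 and 29.8 RPM. The opposite contrast was seen on chromosome 6, where the region 28323118 to 28324447 had 12.1, 11.2 and 9.19 RPM beside a wide region at 5.79, 6.27 and 7.37 RPM. All of these regions were picked as extremes among the 225, and no further library checks them.

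Wide regions with a flanking region on each side allow the 2 flanks to be compared. There were 38 of them, and the stronger flank had a median of 2.40 times the RPM of the weaker, with a range of 1.06 to 38.2. For wild type against EV, both flanks were lower in 7, both were higher in 8 and they differed in sign in 23. For mutant against EV, the counts were 8, 12 and 18. For mutant against wild type, they were 10, 7 and 21. The 2 flanks thus differed in sign more often than they shared one for wild type against EV and for mutant against wild type. For mutant against EV they did so slightly less often. Many of these flanks were under 1 RPM, and no interval was set on the signs.

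A further 24 flanking regions had a wide region within 3 kb on each side. Summed, they changed by -12.3% (-19.1% to -4.88%) for wild type and by -11.0% (-18.1% to -3.35%) for mutant KDM5A against EV, and their nearest neighbours by -11.8% and -20.2%. The strongest of them, on chromosome 11, 63997292 to 63999164, had 30.2 RPM for EV, 22.7 for wild type and 21.9 for mutant KDM5A.

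The regions nearest to the limits of the rule, on either side, had the following levels. Just inside the 3 kb gap, the region on chromosome 1, 154904396 to 154905128, had 1.49 RPM for EV, 2.21 for wild type and 2.22 for mutant KDM5A, while that on chromosome 7, 150721185 to 150721603, had 0.840, 0.829 and 1.31 RPM. Just outside it, at a gap of 3004 bp, the region on chromosome 4, 134067868 to 134068338, had 1.49, 0.184 and 0.505 RPM, and at 3006 bp that on chromosome 14, 65377241 to 65377467, had 0.747, 0.645 and 0.808 RPM. At the width limit, a region of 1999 bp on chromosome 3, 40493755 to 40495753, had 30.2, 24.8 and 25.6 RPM, and one of 1998 bp on chromosome 1, 24738758 to 24740755, had 27.8, 25.0 and 24.7 RPM. Just over it, a region of 2001 bp on chromosome 6, 33284676 to 33286676, had 17.3, 16.6 and 14.7 RPM, and one of 2002 bp on chromosome 2, 105468194 to 105470195, had 6.63, 3.96 and 3.13 RPM.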

How the data were processed

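H3K4me3 ChIP-seq libraries of 3 transfections were used, and 3 input libraries and a pooled IgG library were not analysed here. Sheared fragments measured about 250 to 750 bp, per the labels' protocols. The build was hg19 and the tools were deepTools 3.5.6, HOMER, MACS2, MACS and Bowtie2 2.5.4, per the submitters' processing notes. Nothing used here states how peaks were called or duplicates treated. The RPM values are as the authors deposited them. The EV column header names H3K4me4, read as H3K4me3. RPM sets each library to the same total, and no spike-in was used here, so a loss of mark everywhere and a lower share of reads on target look alike.

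Within each library the values are whole multiples of a single step (0.0933, 0.0921 and 0.101 for EV, wild type and mutant, within 0.02 reads for 100% of values), which gave reads and totals. These served for exact conditional (Clopper-Pearson) 95% intervals of ratios and for Wilson intervals of shares. Since PCR can copy a molecule, the intervals cover counting error only. No model was fitted, since each group has 1 library. Starts were taken as 0-based and are printed 1-based. The log2 ratio used RPM plus 0.7, which understates the change of weak regions.

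The span 394000 to 494000 of chromosome 12 was left out. The members, classes and lists were chosen with earlier results of these data known. Named regions are, among members of 5 RPM or more, the 5 highest in level, the 5 highest in density against the neighbour, the 5 lowest and 5 highest log2 ratios and the 3 lowest and 3 highest differences from the neighbour in each of 3 comparisons. Regions at the limits of gap and width, within 500 bp, nearest to a wide region, and between 2 wide regions were added as examples. Alternatives were other pseudocounts (0.07 and 3.5), scalings, a 2-fold threshold, a level filter, removal of a lowess trend with level (span 0.3) and other limits of gap and width. The procedure was tested on simulated data. Software was scipy 1.17.1 and statsmodels 0.14.6 for intervals and lowess, and pandas 2.3.3, numpy 2.4.6 and matplotlib 3.10.9 under Python 3.11.15.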

Additional observations from a re-analysis of the deposited data

How the results depend on the processing

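No paired analysis was possible because each group has 1 library, and for the same reason no library was left out. Of 114 recomputed values, 9 changed sign, 51 moved (a count by over 1.5 times, a median or share out of its 95% binomial interval) and 54 did neither. The depth limits the weak regions: 110 flanking regions had under 10 reads in every library.

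The sign of the median log2 ratio of the flanking regions depended on the scaling. With the median ratio of strong regions set to 1, it was 0.070 for wild type against EV, 0.10 for mutant against EV and 0.049 for mutant against wild type. With equal sums over the regions it was 0.064, 0.096 and 0.047. These scalings moved the median of all regions by 0.14, 0.22 and 0.086, and by 0.13, 0.22 and 0.083. With the trend on level removed it was 0.012 for mutant against wild type and -0.0083 for mutant against EV. The median difference within pairs then was -0.033 for wild type and -0.025 for mutant against EV, and 0.0098 for mutant against wild type. For mutant against EV, the difference within pairs was 0.090 under both scalings. The cause of these moves was not tested.

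Among the 242 flanking regions at or above the median level of all regions, the median log2 ratios were -0.12, -0.22 and -0.093, and the differences within pairs 0.014, 0.041 and 0.0021, in the order wild type against EV, mutant against EV and mutant against wild type. For mutant against EV the median was -0.038 with a pseudocount of 3.5, -0.022 for the 230 regions with a gap up to 1 kb and -0.13 for the 634 beside a region from 3000 bp.

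Counts past 1.5-fold, as lower and higher in the same order of comparisons, were 226 and 208, 225 and 201, and 198 and 192 with a pseudocount of 0.07. They were 11 and 1, 9 and 2, and 1 and 1 with a pseudocount of 3.5. They were 4 and 2, 10 and 2, and 8 and 1 with the level filter. Past 2-fold were 35 and 20, 35 and 13, and 11 and 20. For mutant against EV they were 98 and 195 with the strong regions set to 1, and 191 were higher with equal sums. Lower regions made up 52.0%, 55.4% and 50.6% of those past 1.5-fold, 36.5%, 33.4% and 36.1% with the strong regions set to 1, and 37.1%, 34.4% and 36.3% with equal sums.

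The share of reads in the flanking region, for EV, wild type and mutant KDM5A, was 5.48%, 5.79% and 5.98% with a gap up to 1 kb and 11.6%, 12.02% and 12.2% with a gap up to 10 kb. It was 6.40%, 6.71% and 6.92% where wide meant 1500 bp, and 13.3%, 13.6% and 13.7% where it meant 3000 bp. The share went up from EV to wild type to mutant under each of these limits. This did not hold in each class of level. For flanking regions under 1 RPM the shares were 1.44%, 1.37% and 1.56%, and for those of 20 RPM or more 37.4%, 37.3% and 37.1%.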

Other observations

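The sign of the median change varied by chromosome. For wild type against EV, the median log2 ratio of the flanking regions was below 0 on 18 of 22 autosomes and ranged from -0.18 to 0.32, and for mutant against EV it was below 0 on 16 and ranged from -0.24 to 0.34. The flanking regions were above their neighbours in the median difference on 16 of 22 autosomes for wild type and on 20 for mutant KDM5A against EV. Chromosomes with few flanking regions rest on few values.

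Width split the flanking regions less than level did. Summed RPM changed by -5.95% for wild type against EV in the 342 regions under 500 bp, by -1.73% in the 352 of 500 to 1000 bp and by -7.29% in the 425 of 1000 to 2000 bp. Mutant against EV gave -5.49%, -3.15% and -13.3%. The side of the wide region made little difference: the median log2 ratio for wild type against EV was -0.040 before and -0.059 after it.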
